A study of Mus musculus with 8 samples.

Results

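The cytosolic ribosomal protein genes were taken by symbol from a table of gene expression in mouse stomach. A row was a member when its symbol was Rpl or Rps followed by a number and an optional a, x or y, or was Rplp0, Rplp1, Rplp2 or Rpsa. This gave 76 of the 23361 rows, 46 for proteins of the large subunit and 30 for proteins of the small subunit, and all 76 passed the filter on low values. RNA sequencing had been done on 5 cancers of the gastric squamous-columnar junction (SCJ), where the squamous forestomach meets the glandular stomach, and on the same region of 3 control stomachs. The cancers were Trp53-/-Rb1-/- and arose in mice with conditional (loxP) alleles of Trp53 and Rb1, a tamoxifen-activated Cre knocked in at Lgr5 and the Ai9 tdTomato reporter. The control tissue came from age-paired wild-type mice. Deletion was thus limited to cells that expressed Lgr5 and their descendants, and the tumor borders were drawn by tdTomato. Whether the controls, named only as wild type, carried any of these alleles is not given in the sources used here. The control stomachs came from separate mice; the sources used here do not say so of the tumors, and p-values measure the spread between these samples. Values are FPKM, fragments scaled to transcript length and to library size, rounded to whole numbers; depth per library is unknown.

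The ribosome has a small subunit that reads the mRNA and a large subunit that joins amino acids, and in mammals its RNA core is covered by some 80 different proteins, nearly all present as a single copy. Their mRNAs are among the most abundant of a cell and typically begin with a 5′ terminal oligopyrimidine (TOP) tract, a C followed by a run of C and T, through which mTOR and LARP1 control their translation. Free ribosomal proteins, RPL5 and RPL11 above all, bind MDM2 and so stabilize p53 when ribosome assembly fails. Their genes have left many processed copies in the genome.

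The TOP tract is shown for members in which it lies at the annotated start. A RefSeq promoter of 250 bases before to 50 bases after the start (GRCm38.p6) was matched for 56 of the 76 genes, giving 66 promoters. Of these 66, 13 had a C at the start followed by at least 4 pyrimidines (19.7%), against 2.51% of all 32851 promoters. Within 5 bases of the start the shares were 43.9% and 18.3%. The tract of these 13 genes ran for 5 to 13 bases. The 4 listed here are the stalk protein gene Rplp2, Rps6, whose product is the classic target of S6 kinase, and Rpl14 and Rpl35, which stood near opposite ends of the comparison among the members below. Each window covers 15 bases on each side of the boundary before the start, with the tract in capitals.
Rplp2, chr7:141447636-141447665, plus strand: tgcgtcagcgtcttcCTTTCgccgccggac
Rps6, chr4:86857353-86857382, minus strand: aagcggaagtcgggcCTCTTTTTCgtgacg
Rpl14, chr9:120571502-120571531, plus strand: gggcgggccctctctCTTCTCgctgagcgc
Rpl35, chr2:39005117-39005146, minus strand: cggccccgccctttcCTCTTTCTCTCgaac
The 13 genes with the tract at the start had a median log2 fold change of 0.71 in rescaled values (below), against 0.75 for the other 43 matched genes and 0.73 for the 20 without an entry. Of the other motifs searched on both strands, none of which contains another, CCGGAAG was in 36.4% of the members' promoters and 8.86% of all, ATGGCG in 28.8% and 8.93%, CACGTG in 12.1% and 7.15%, and GGGCGG in 60.6% and 35.7%. A match is a run of letters and not a measured site.

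As deposited, the summed FPKM of the 76 genes did not separate the groups. It was 72406, 66114 and 74043 in controls 1 to 3 and 43194, 80034, 45883, 83495 and 49970 in cancers 1 to 5. Cancers 2 and 4 lay above every control and cancers 1, 3 and 5 below every control, so that the cancers enclosed the controls. The mean was 60515 ± 19586 (SD, n = 5) in cancer and 70854 ± 4186 (SD, n = 3) in control tissue, a ratio of 0.854. In bulk tissue, fewer cells of a type and less RNA per cell cannot be told apart.

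The share of the members in all FPKM separated the groups. It was 7.58%, 7.45% and 7.46% in the controls and 10.7%, 13.9%, 10.5%, 14.9% and 11.2% in cancers 1 to 5. Every cancer was above every control, with means of 12.3% ± 2.04 (SD, n = 5) and 7.50% ± 0.0690 (SD, n = 3), a ratio of 1.63. The column sums themselves differed, being 403569 to 573858 in the cancers and 887141 to 992550 in the controls. The 10 most abundant rows of the table, among them the gastric secreted products Tff1, Gkn1, Gkn2 and Pgc and the digestive gene Clps, held 38.2% to 43.2% of the sum in the controls and 7.04% to 15.3% in the cancers. The 10 rows also include Cck, at 1462 to 33979 in the cancers against 4 to 24 in the controls. Chga, at 3247 to 12837 against 108 to 152, is another of them. Leaving the 10 rows out thus also removes genes that were far higher in the cancers. With these 10 rows left out of the sum, the members' share was 12.3%, 12.7% and 13.1% in the controls and 11.9%, 16.5%, 11.8%, 17.5% and 12.1% in the cancers, and the groups again overlapped. Pgc was listed at 28832 in control 1 and at 0 in controls 2 and 3, and Chia at 0 in control 2 only among the controls, so some zeros may be failed estimates that lower those column sums.

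**Figure D1:**
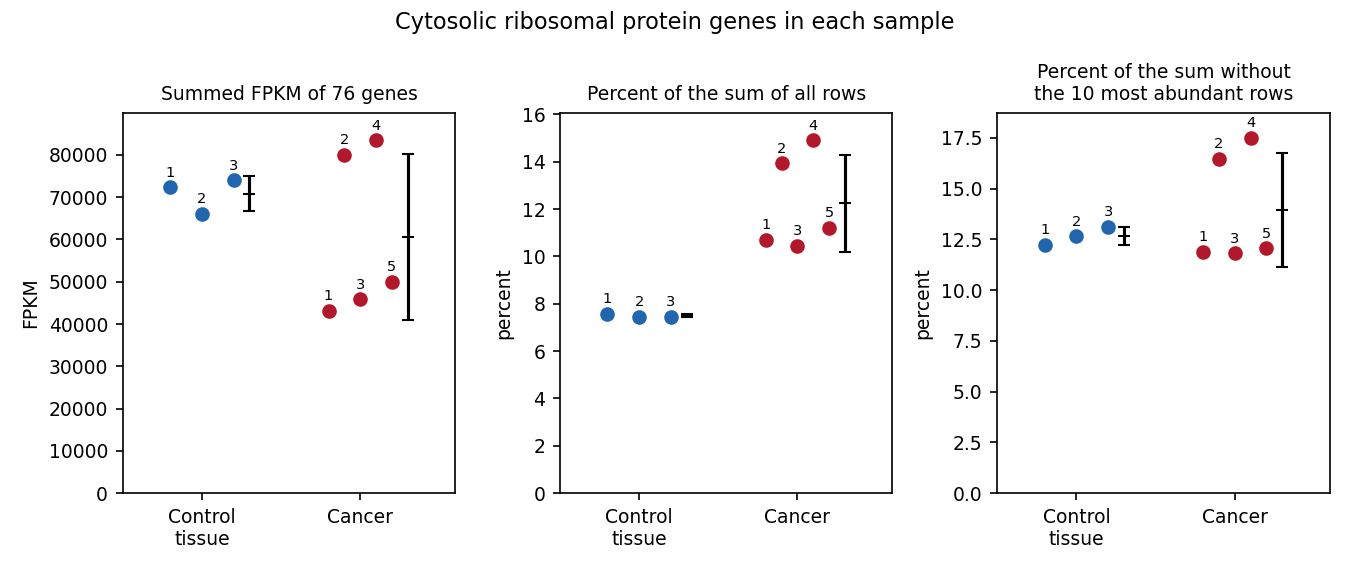
Summed level of the 76 genes in each sample, as FPKM (left), as percent of the sum of all rows (middle) and as percent of the sum without the 10 most abundant rows (right). Points are samples with their numbers and bars are the mean ± SD; only in the middle panel does every cancer (10.5% to 14.9%) lie above every control (7.45% to 7.58%).

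Gene by gene the picture was the same. Each gene was tested with limma on log2(FPKM + 1), with Benjamini-Hochberg adjustment over all 14357 genes tested and a threshold of 0.05. On FPKM as deposited, 0 of the 76 genes were higher in cancer, where 16.2% of all genes tested were, and 0 were lower, where 18.3% were. None of the 76 had an unadjusted p under 0.05, and the lowest adjusted p was 0.114, for Rps14. The median log2 fold change was -0.24 over the members and -0.04 over all genes tested, and 69 of the 76 values were below 0. Every cancer was above every control for 0 members (14.4% of all genes tested) and below for 0 (19.8%). The 0 calls depend on the weight given to each library: with limma's array weights Rplp1, Rplp0, Rps26 and Rpl29 were lower, at log2 fold changes of -0.88, -0.61, -0.71 and -0.57, genes named after their values were seen; 29.5% of all genes tested were lower in that fit.

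After each column was rescaled to the same sum of 1000000 (TPM), 61 of the 76 genes were higher in cancer (80.3%), where 50.0% of all genes tested were, and 0 were lower, where 3.68% were. The median log2 fold change was 0.74 over the members and 0.81 over all genes tested, so that the members lay 0.07 below the median gene, against 0.20 below it on FPKM as deposited. The rescaling thus moved the median of all genes by far more than the distance of the members from it. Every cancer was above every control for 65 members (85.5%) and for 49.6% of all genes tested, and below for 0 members and 4.51% of all genes. The 61 genes rose by 0.55 (Rps3) to 1.19 (Rpl30) on the log2(TPM + 1) scale. The count fell to 34 without control 1, 35 without control 2 and 35 without control 3, where 33.5%, 35.0% and 32.5% of all genes tested were higher, and was 50 to 60 without any 1 cancer. With the replicate number as a block it was 4 (Rpl14, Rpl21, Rpl27a and Rpl30), where 31.3% of all genes tested were higher. Every other member lost its call in that fit.

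**Figure D2:**
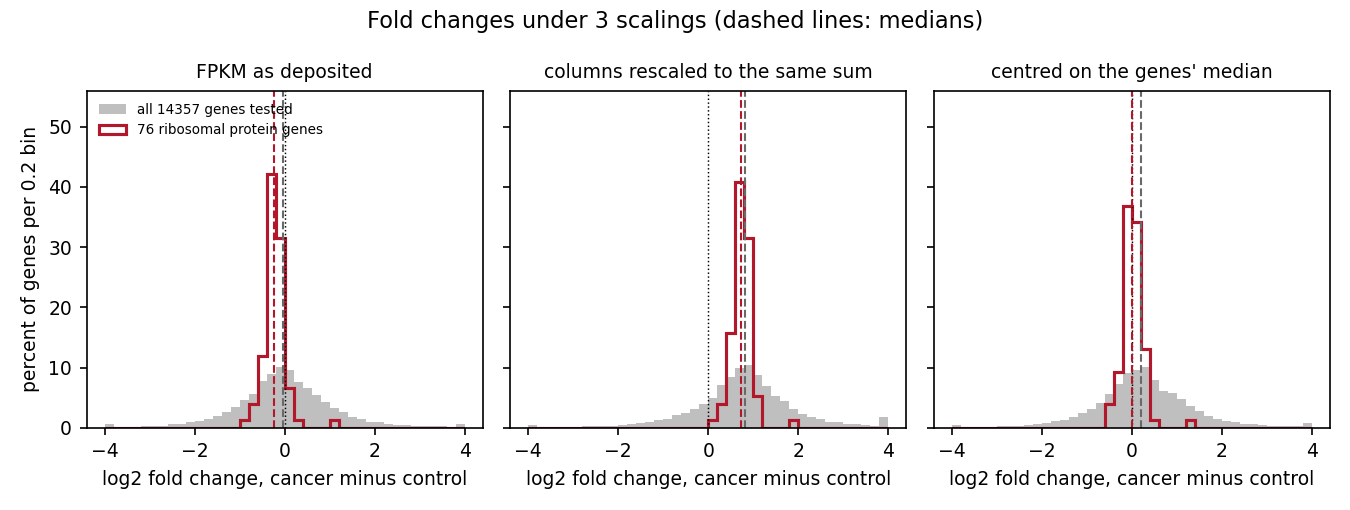
Distribution of log2 fold changes (x axis, cancer minus control) as percent of genes per bin of 0.2 (y axis) for all 14357 genes tested (grey) and the 76 ribosomal protein genes (red line), under FPKM as deposited, columns rescaled to the same sum, and values centred on the members; values beyond 4 are in the end bins and dashed lines are medians. The members form a narrow peak at -0.24, 0.74 and 0.00, while the median of all genes is at -0.04, 0.81 and 0.20.

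The members moved together from sample to sample. Of the variance of log2(FPKM + 1) within genes, 58.2% was a shift common to all 76 genes in a sample, and 79.1% when Rps27 and Rpl26, listed at very low values, were left out. That share was not computed for other genes, so whether it is particular to the members is not known. The split of cancers 2 and 4 from cancers 1, 3 and 5 was taken from the summed levels above, so the next counts describe it gene by gene and are no separate evidence of it. Cancers 2 and 4 both exceeded cancers 1, 3 and 5 in 74 of the 76 genes (17.1% of all genes tested); the exceptions were Rpl30 and Rps27. Cancers 1, 3 and 5 were below every control in 62 members (28.9% of all genes tested), and cancers 2 and 4 above every control in 46 (20.7%). The median FPKM of the members was 563 in cancer 1 and 1063 in cancer 2, and the median coefficient of variation of a member was 32.0% over the cancers and 10.2% over the controls, beside 34.2% and 18.2% over the genes tested that were above 0 in the group. It was larger in the cancers for 70 of the 76 genes and for 71.6% of the genes tested that were above 0 in both groups.

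Summed markers of 3 normal stomach cell types were also highest in cancers 2 and 4 among the cancers. The summed FPKM of 6 parietal cell markers was 3, 1513, 212, 2641 and 290 in cancers 1 to 5 and 6651 to 12469 in the controls. Atp4a and Atp4b, the subunits of the acid pump, were at 0 in cancer 1. The 7 pit and neck mucous markers summed to 692, 74468, 5273, 46371 and 15960 in the cancers and 146267 to 214383 in the controls. The 4 chief cell markers summed to 12, 5075, 628, 7309 and 655 against 3462 to 31484, where Pgc was listed at 0 in controls 2 and 3. Gif, at 0, 520, 36, 434 and 178 in the cancers and 2581 to 4982 in the controls, is in both the parietal and the chief cell list. These sums therefore do not separate parietal from chief cells. Single markers did not all share that order: cancers 2 and 4 both exceeded the other cancers in 4 of the 6 parietal, 7 of the 7 pit and neck and 2 of the 4 chief cell markers. Gif is counted among the parietal and again among the chief cell markers. Pgc made up most of the chief cell sum in cancers 2 and 4. Bhlha15, a transcription factor of chief cells, was at 9, 3, 4, 2 and 8 in cancers 1 to 5, lowest in those same cancers. The sums of the other lists did not share that order. Squamous markers, 8 in number, summed to 2, 22, 713, 2334 and 1060 in the cancers and 4241 to 7192 in the controls. The 5 smooth muscle markers gave 41, 1313, 405, 299 and 63 against 308 to 434, the 5 fibroblast markers 61 to 310 against 68 to 127, the 4 erythroid markers 11 to 58 against 14 to 19, and the 5 leukocyte markers 134 in cancer 1 and 8 to 20 in the other cancers against 6 to 8. The 6 neuroendocrine markers summed to 7753 to 17208 in the cancers and 123 to 185 in the controls, lowest among the cancers in cancer 2. The part of these cells in the ribosomal protein levels was not tested.

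**Figure D3:**
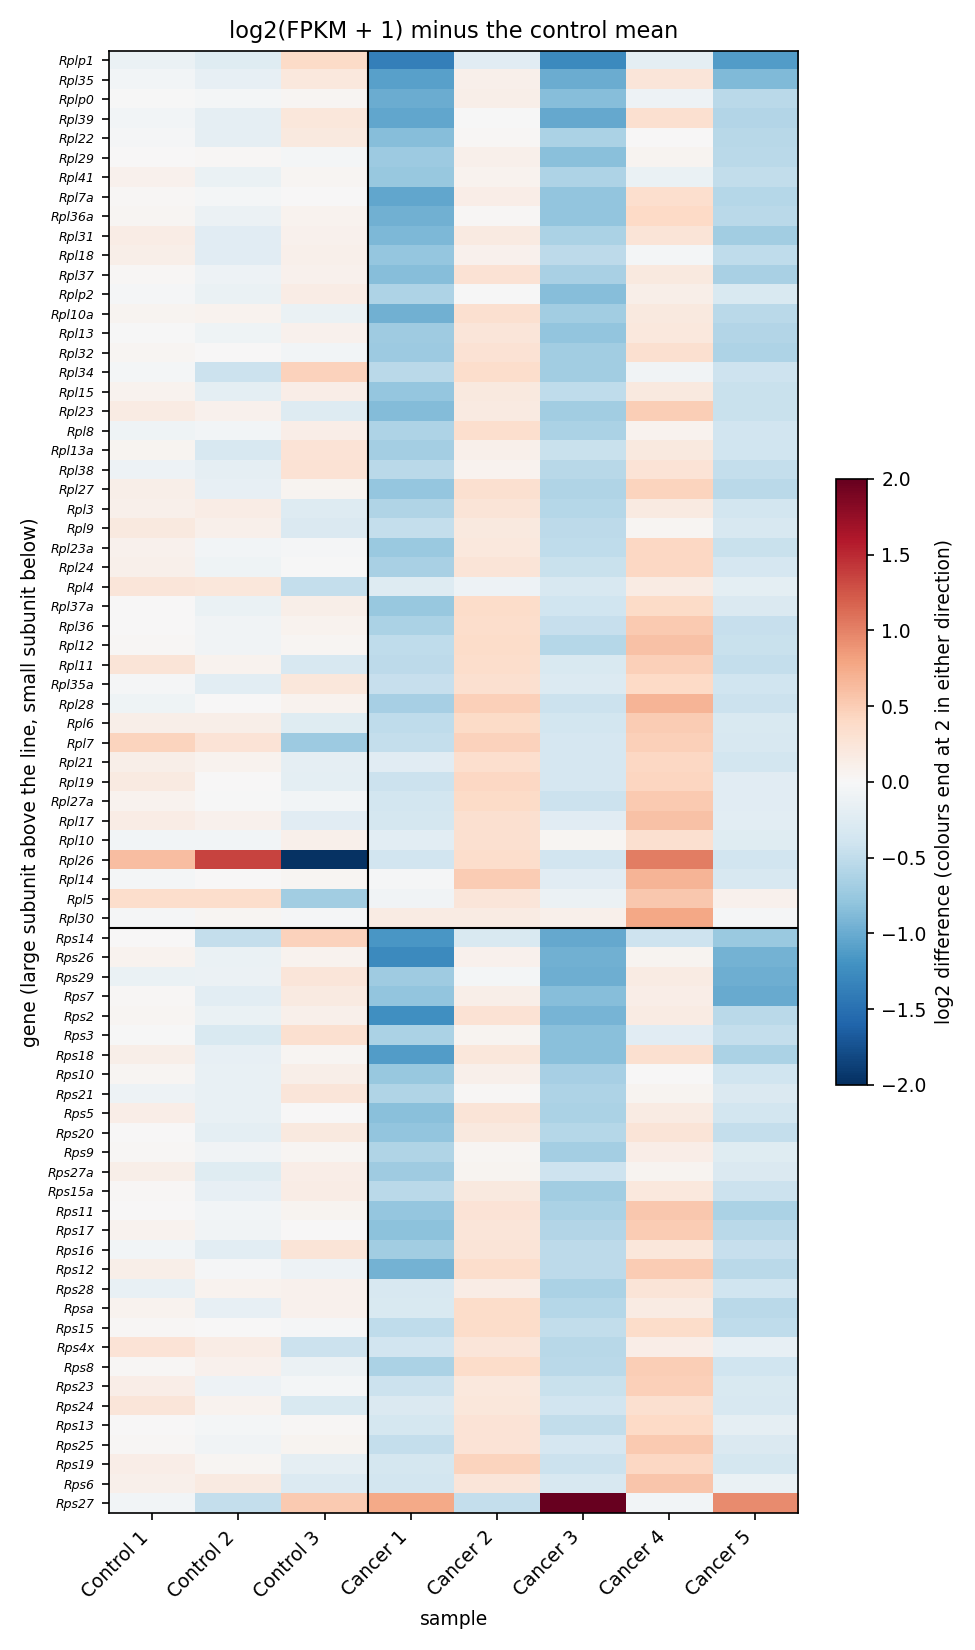
log2(FPKM + 1) of 75 of the 76 genes (rows, large subunit above the line) in each sample (columns), minus the mean of the 3 controls; red is higher and blue lower, with colours ending at 2. Cancers 2 and 4 are pale red and cancers 1, 3 and 5 blue over most rows, and Rps27 and Rpl30 break the pattern.

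RPL5 and RPL11 form, with the 5S rRNA, the particle that binds MDM2. Rpl5 had FPKM of 266, 328, 256, 403 and 296 in cancers 1 to 5 and 354, 355 and 171 in the controls. The groups overlapped, with control 3 the lowest sample and cancer 4 the highest. In TPM, Rpl5 was 572 to 720 in the cancers against 370, 400 and 172 in the controls, a log2 fold change of 1.11 ± 0.278 (SE; limma adjusted p = 0.0111). Rpl11 had FPKM of 710, 1301, 825, 1421 and 735 in the cancers against 1219, 1077 and 816 in the controls, which overlapped; its TPM log2 fold change was 0.88 ± 0.241 (SE; limma adjusted p = 0.0158). Without control 3 the TPM value of Rpl5 became 0.73 and that of Rpl11 0.68, which no longer passed (limma adjusted p = 0.0693). Their partner Mdm2 was at 21, 11, 20, 13 and 20 against 13, 13 and 12 and passed only in TPM (log2 fold change 1.30, limma adjusted p = 0.0140). Cdkn1a, the cell cycle inhibitor induced by p53, was at 18, 81, 18, 54 and 90 against 182, 128 and 190. Cdkn1a fell by 1.94 on the log2(FPKM + 1) scale (limma adjusted p = 0.0414), with a TPM value of -0.99 that did not pass and a value centred on the members of -1.70 that did (limma adjusted p = 0.0228). Trp53 itself was at 12, 22, 12, 30 and 12 in the cancers against 16, 17 and 19 in the controls, at log2 fold changes of -0.08 on FPKM, which did not pass, and 0.86 in TPM, which did (limma adjusted p = 0.0201). Rb1 was at 4, 4, 5, 6 and 4 against 9, 9 and 10, lower on FPKM (limma adjusted p = 0.00589) and at a log2 fold change of -0.05 in TPM. A gene's total FPKM can include transcripts of a deleted allele and of cells that kept it, so these levels do not check the genotype.

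The stalk of the large subunit, built of RPLP0 and pairs of RPLP1 and RPLP2, recruits the elongation factors. Rplp1 was the most abundant member in the controls, with FPKM of 2941, 2729 and 4220, and was 1259, 2779, 1334, 2832 and 1496 in the cancers. Cancers 2 and 4 fell between the lowest and the highest control, and the other cancers below all. Its log2 fold change was -0.83 on FPKM and 0.14 ± 0.279 (SE) in TPM, the lowest of all members in both, and neither passed. Rplp0 had FPKM of 547 to 1176 in the cancers and 1061 to 1110 in the controls. In TPM, Rplp0 was 1355 to 2049 against 1118 to 1196, without overlap, but its log2 fold change of 0.51 did not pass (limma adjusted p = 0.0649). Rplp2 had TPM of 1247 to 1912 in the cancers and 1015 to 1106 in the controls and was higher (log2 fold change 0.64, limma adjusted p = 0.0259), a call lost without cancer 5 and without each control (up to 0.0812). The stalk genes together took 5.68%, 6.17%, 5.41%, 5.89% and 6.09% of the members' summed FPKM in the cancers, against 6.90%, 7.10% and 8.68% in the controls. Every cancer was below every control in this share, which does not depend on the scaling between libraries; the sum was chosen after the values of Rplp1 were seen and was not tested. Rplp1 alone carried it, with 2.91% to 3.47% in the cancers against 4.06% to 5.70%, while Rplp0 and Rplp2 together took 2.50% to 3.09% against 2.83% to 2.98% and overlapped.

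Among the other large subunit genes, Rpl10, for a protein joined late to the large subunit, had FPKM of 1114, 1612, 1325, 1613 and 1088 in the cancers against 1239, 1246 and 1387 in the controls. This was among the smallest differences of FPKM, at a log2 fold change of 0.05, and in TPM Rpl10 rose by 1.02 (limma adjusted p = 0.00306). Rpl3, near the peptidyl transferase center, rose by 0.76 in TPM and Rpl23, another MDM2 binder, by 0.71. The call of Rpl3 was lost without control 3 (limma adjusted p = 0.0633). That of Rpl23 (limma adjusted p = 0.0431) was lost without limma's trend, with array weights and with the replicate number as a block. It was also lost without 7 of the 8 samples, each left out in turn (limma adjusted p 0.0503 to 0.160). Rpl22, which is dispensable for growth and has a paralog, was listed at 64 to 118 in the cancers and 103 to 133 in the controls and rose by 0.57 in TPM, a call lost without control 1 or control 2 (limma adjusted p up to 0.0644). Rpl41, for the smallest protein of the ribosome, had the highest mean FPKM in the cancers, 1673, 2948, 1831, 2567 and 2005 against 2998, 2572 and 2908, and rose by 0.59 in TPM. Its call (limma adjusted p = 0.0400) was lost with no filter on low values and with the replicate number as a block. It was also lost without 7 of the 8 samples, each left out in turn (limma adjusted p 0.0552 to 0.114). Rpl39, for a protein lining the exit tunnel, had a TPM log2 fold change of 0.51 that did not pass.

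Among the small subunit genes, Rpsa, whose product also serves as a laminin receptor, had FPKM of 425 to 810 in the cancers and 562 to 669 in the controls and rose by 0.80 in TPM. Rps6 rose by 0.97 and Rps19, the gene most often mutated in Diamond-Blackfan anemia, by 0.92. Rps3, for a protein at the mRNA entry site, rose by 0.55 and Rps27a, which is made as a fusion with ubiquitin, by 0.71. Rps14 was an exception. It had FPKM of 855, 1553, 946, 1443 and 1157 in the cancers against 1935, 1387 and 2667 in the controls, where it ranked 4 among the members. Its TPM log2 fold change was 0.24 and did not pass. Rps4x, on the X chromosome, rose by 0.83 in TPM. Of the 4 X-linked members, Rpl10 and Rps4x passed in TPM, as did 50.0% of all genes tested in that direction, and Rpl36a (0.60) and Rpl39 did not. The call of Rps4x was lost without control 3 (limma adjusted p = 0.0690) and that of Rps3 without 5 of the 8 samples, each left out in turn (up to 0.131). The sexes of the mice, read from Xist and 4 Y-linked genes, were mixed in both groups, and control 2 held Xist (16) together with all 4 Y-linked genes (1 to 6).

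By subunit, in TPM, 38 of 46 large subunit genes and 23 of 30 small subunit genes were higher, beside 50.0% of all genes tested, with medians of 0.74 and 0.74 and an all-gene median of 0.81. The ratio of their summed FPKM was 1.39 ± 0.0180 (SD, n = 5) in the cancers and 1.37 ± 0.0203 (SD, n = 3) in the controls, and the samples overlapped (1.37 to 1.42 and 1.35 to 1.39). The 15 genes not past the threshold in TPM, with log2 fold changes of 0.14 to 0.81 and, for Rps27, 1.91, included Rplp1, Rps14, Rps26, Rpl35, Rps29, Rps7, Rplp0, Rpl39, Rps2, Rps18, Rpl7a, Rpl36a, Rpl26 and Rps27.

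To ask which members moved against the others whatever the scaling, each sample was centred on the median log2(FPKM + 1) of the members. In this fit 0 members were higher, where 10.8% of all genes tested were, and 0 were lower, where 9.47% were. Centring takes out the shift that the members share and sets their median near 0 by construction, which is not so for other genes. The shares of all genes are thus not a like comparison here. Rplp1 and Rps14 had an unadjusted p under 0.05. The 5 lowest included Rplp1 (-0.59 ± 0.205, SE; limma adjusted p = 0.0654), Rps14 (-0.49), Rps26 (-0.37) and Rpl35 (-0.28). The 5 highest were Rps27 (1.27), Rpl30 (0.47), Rpl5 (0.38), Rpl14 (0.36) and Rpl26 (0.29). With array weights Rplp1 and Rps26 were lower and Rpl10, Rpl14, Rpl30 and Rps27 higher, where 17.7% and 47.0% of all genes tested were. Among genes averaging at least 5 FPKM, Rplp1 was lower (-0.59, limma adjusted p = 0.0448), as were 12.7% of those genes. Rpl14, for a protein on the solvent side of the large subunit, had FPKM of 529, 762, 457, 862 and 429 in the cancers against 523, 537 and 550 in the controls.

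**Figure D4:**
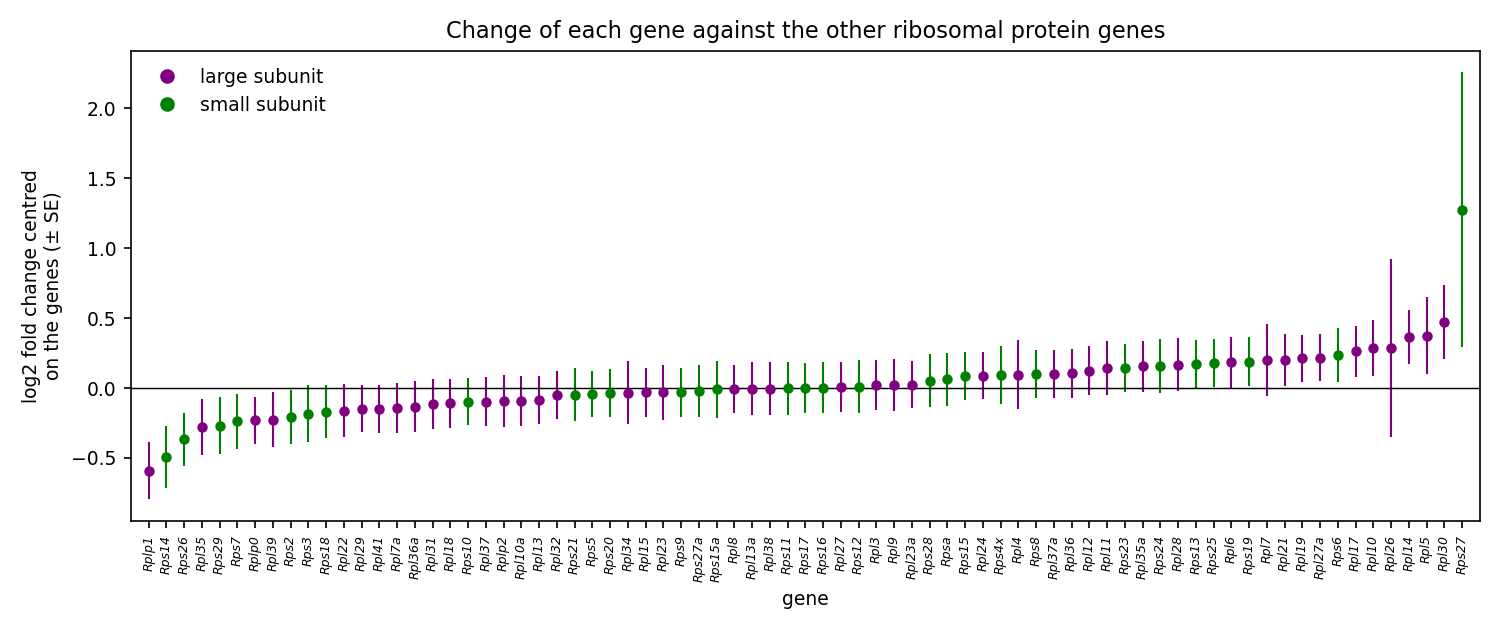
log2 fold change of 75 of the 76 genes (x axis, ordered) after each sample was centred on the members' median (y axis, points with SE from limma), with large subunit genes in purple and small subunit genes in green. Values run from -0.59 (Rplp1) to 1.27 (Rps27), and no gene passed the threshold.

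One control differed from the others in the balance of the members. Against the mean of controls 1 and 2, in centred values, control 3 differed by more than 0.5 on the log2 scale in 9 genes. Rpl26 (-2.93), Rpl7 (-1.07), Rpl5 (-1.03), Rpl4 (-0.68) and Rps4x (-0.61) were lower, and Rps27 (0.82), Rps14 (0.73), Rpl34 (0.71) and Rplp1 (0.60) higher; Rpl7 and Rpl4 are named after their values were seen. Rpl7 was listed at 518 in control 3 and at 1169 and 1041 in controls 1 and 2. The same count was 0 to 3 for each cancer against the other cancers, 2 for control 1 and 6 for control 2. Rplp1, Rps14 and Rpl5, near the ends of the centred order, are thus among the genes in which control 3 stood apart.

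The order of the members by level was nearly the same in both groups. Across the 76 genes, the mean log2(FPKM + 1) of cancers and controls correlated with Pearson's r = 0.992 and Spearman's rho = 0.969, a description across genes, which are not independent. Between single samples r was 0.916 to 0.995 over 28 pairs. The 10 highest genes of each group shared 8. Rplp1, Rpl41, Rpl38, Rps18 and Rps12 had the highest mean FPKM over all samples, 2449, 2438, 1910, 1586 and 1543. Of the 76, 62 had a mean of at least 500, and 42 were among the 100 highest rows of the table. The 5 lowest, Rpl26 (3.88), Rps27 (11.8), Rpl30 (25.3), Rps15a (49.8) and Rpl22 (101), stood far below the median member at 846.

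For 3 of these low genes the signal was listed under another name at the same place. Among members with a locus under 10 kb, the table gave 4 a second row with the identical locus in mm10 and at least 10% of the member's level. Another 7 members, Rps15, Rpl38, Rpl31, Rpl5, Rpl32, Rps27a and Rps25, share a longer locus with rows of other genes, and those rows were not summed with them; only for Rps15 did any such row reach 10% of the member's level. Rpl26 (chr11:68901566-68904534) shared its locus with Gm15772, Rpl30 (chr15:34440506-34443276) with Gm12191, Rps27 (chr3:90212667-90213648) with Gm9846, the current Rps27rt, and Rpl34 (chr3:130726831-130730329) with Rpl34-ps1. RefSeq (GRCm38.p6) places these partners elsewhere, Gm15772 at chr5:3236390-3236928, Gm12191 at chr11:49678620-49679143, Rps27rt at chr9:114982366-114982739 and Rpl34-ps1 at chr6:71124589-71125001. The coding sequence of Rps27 (255 bases) was identical in the GENCODE transcript of Rps27rt. Gm15772 differed from the coding sequence of Rpl26 at 2 of 438 bases, Gm12191 from Rpl30 at 1 of 348, and Rpl34-ps1 from Rpl34 at 2 of 354. The windows below, counted from 1 at the start codon, hold the first difference of each pair in capitals, to show how little separates the rows.
Rpl26, bases 162 to 191: agttcaggttgttcgCggacactacaaagg
Gm15772: agttcaggttgttcgTggacactacaaagg
Rpl30, bases 81 to 110: cgtgctgggctacaaGcagactctgaagat
Gm12191: cgtgctgggctacaaAcagactctgaagat
Rpl34, bases 117 to 146: gaaagcacctaaatcTgcatgtggcgtgtg
Rpl34-ps1: gaaagcacctaaatcCgcatgtggcgtgtg

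The partner rows carried nearly all of the signal for 3 of the 4. Rpl26 was listed at 2, 4, 2, 7 and 2 in the cancers against 5, 9 and 0 in the controls, and Gm15772 at 731, 1498, 855, 1638 and 944 and at 1414, 1190 and 1247. Rps27 was listed at 6, 2, 66, 3 and 7 and at 3, 2 and 5, and Gm9846 at 1828, 2369, 1425, 2585 and 1681 and at 2206, 1984 and 2837. Cancer 3 stood apart in Rps27 alone. Rpl30 was listed at 25, 25, 24, 39 and 22 and at 22, 23 and 22, and Gm12191 at 701, 1462, 905, 1362 and 889 and at 1304, 1063 and 1185. The members held 0.325%, 0.553% and 2.23% of the summed pair for Rpl26, Rps27 and Rpl30, and 70.5% for Rpl34. How fragments were divided between such rows is uncertain, and the 4 members' own values should be read with that limit. With each pair summed, the centred log2 fold changes became 0.00068 for Rps27, -0.0015 for Rpl26, 0.055 for Rpl30 and -0.12 for Rpl34, and the TPM values 0.73, 0.73, 0.78 and 0.61. With these sums all 4 genes were higher in TPM and the count rose from 61 to 63 of 76 (50.0% of all genes tested). This alternative was chosen after seeing the data.

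**Figure D5:**
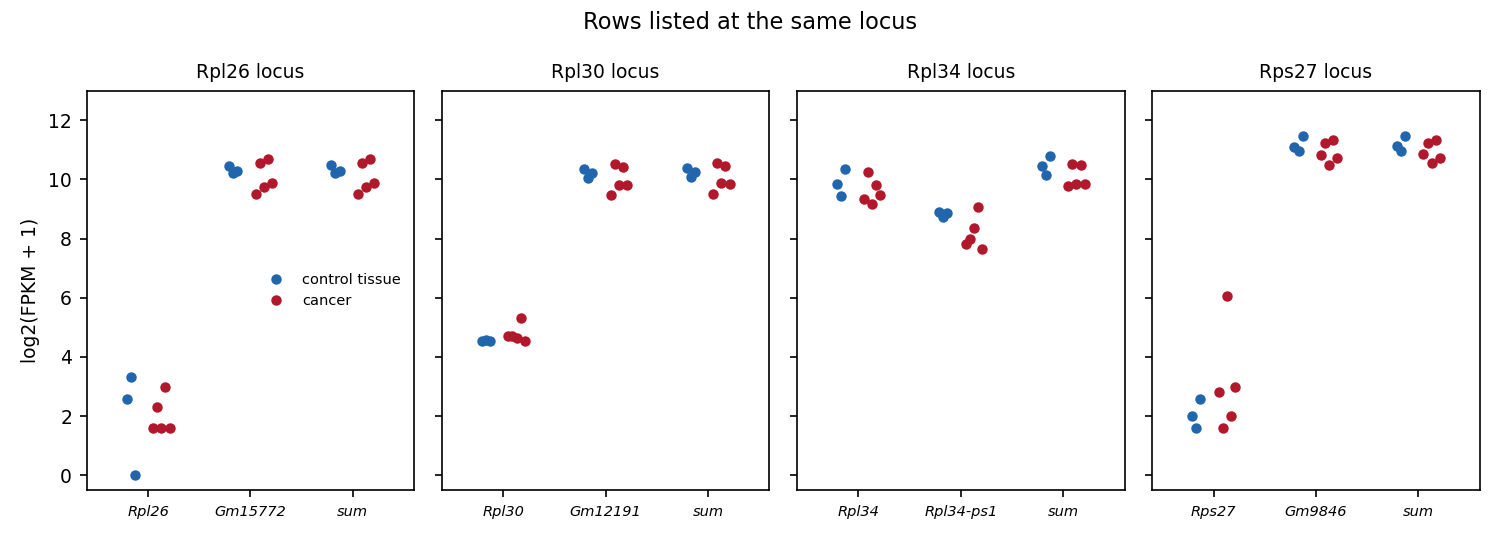
log2(FPKM + 1) (y axis) of 4 ribosomal protein genes, of the second row listed at the same locus, and of their sum, in each control (blue) and cancer (red). Rpl26, Rpl30 and Rps27 are listed at 0 to 66 FPKM and their partners at 701 to 2837, and the 66 of Rps27 in cancer 3 does not show in the sum.

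Near copies are a general trait of this family. GENCODE (vM21) names 291 pseudogenes after 59 of the 76 genes, and 29 of the 76 hold at least 1 snoRNA gene on the same strand, 56 in all. Of the 33 members with another row at the identical locus, 21 shared it with rows of small RNAs only. The median TPM log2 fold change was 0.75 for the 29 host genes and 0.73 for the 47 others. The members lie on 19 chromosomes, 14 of them on chromosome 7.

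The naming rule leaves out some ribosomal proteins of the same ribosome. Fau, which encodes a ubiquitin-like fusion with the small subunit protein eS30, was at 387, 739, 408, 778 and 566 in the cancers against 780, 743 and 822 in the controls. Gnb2l1, for the scaffold RACK1, was at 401, 830, 408, 705 and 545 against 751, 678 and 747. Neither passed on FPKM, and in TPM Gnb2l1 did (log2 fold change 0.59, limma adjusted p = 0.0346) while Fau, at 0.48, did not. Rps3a1, for the small subunit protein eS1, was at 936, 1255, 908, 1252 and 953 against 1163, 1052 and 709 and rose by 1.12 in TPM. Among paralogs, Rpl7l1 and Rpl36al rose in TPM by 0.64 and 0.57, and Rpl22l1 (0.63) did not pass. Rps27l, a p53-induced relative of Rps27, was at 146, 370, 169, 334 and 178 in the cancers against 421, 360 and 551 in the controls. It fell by 0.73 in the values centred on the members (limma adjusted p = 0.0333), at -0.97 on FPKM and 0.00 in TPM without passing. Rps4y2 was listed at 2 to 27 against 8 to 19, and Rpl3l, Rpl10l and Rpl39l, known from muscle and testis, at 0 in all samples.

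The machinery that builds and uses ribosomes gave the following counts, read against the background shares above. Of 53 ribosome assembly factors, 1 was higher and 4 lower on FPKM and 39 higher in TPM, with medians of -0.07 and 0.82. The lower ones included Eif6, which keeps the subunits apart (48, 95, 51, 66 and 80 against 164, 131 and 134), Bop1 and Rrp12. In TPM the values of these 3 were -0.14, 0.13 and 0.0028, and none passed. In values centred on the members Eif6 was lower (-0.86, limma adjusted p = 0.0272) and Bop1 (-0.55) and Rrp12 (-0.52) did not pass. Of 20 genes of RNA polymerase I, which transcribes rRNA, 0 passed on FPKM and 16 were higher in TPM. Of the 3 MYC genes, 0 passed on FPKM and 3 were higher in TPM. Myc, a driver of ribosome production, was at 9, 17, 9, 18 and 12 against 15, 17 and 16. Mycn was at 1 to 2 and Mycl1 at 3 to 4 against 1 to 3, where rounding is coarse.

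Of 37 initiation factors, 1 was higher and 5 lower on FPKM and 24 higher in TPM. Eif1b (91, 50, 70, 70 and 54 against 34, 28 and 35) rose, while Eif4ebp2, an mTOR-controlled repressor of cap-dependent initiation, fell by 1.64 on FPKM and Eif3c by 1.03. In TPM these were at -0.71 and -0.07 and did not pass, while Eif1b was higher on both scales. In values centred on the members Eif1b was higher (1.24) and Eif3c lower (-0.79, limma adjusted p = 0.0363), and Eif4ebp2 (-1.40) did not pass. Of 11 elongation and release factors, 1 was higher and 2 lower on FPKM and 7 higher in TPM. The higher one was Eef1a2, the neuron and muscle form of eEF1A, at 28, 46, 72, 25 and 107 in the cancers against 1, 1 and 1 in the controls (log2 fold change 4.61 on FPKM, limma adjusted p = 0.00108). Etf1 and Gspt1, the release factors, fell by 0.75 and 0.65 on FPKM, and in TPM were at 0.21 and 0.28 and did not pass. Of 19 TOP mRNAs of other proteins, 1 was higher on FPKM, Nap1l1 (89, 52, 71, 67 and 71 against 32, 35 and 24), and 15 in TPM, with a TPM median of 0.71 beside 0.74 for the members.

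Of 10 regulators of TOP mRNA translation, 3 were lower on FPKM and 2 higher in TPM, where 50.0% of all genes tested were higher. Larp1, the TOP binding protein, was at 14, 25, 14, 17 and 22 against 43, 40 and 49 and fell by 1.25, Mtor by 1.14 and Larp4 by 0.88. In TPM their values were -0.31, -0.27 and 0.04, and none passed. In values centred on the members Larp1 was lower (limma adjusted p = 0.0250), while Mtor (-0.90) and Larp4 (-0.64) did not pass. Of 8 snoRNA host RNAs, Snhg5 and Snhg8 were higher on FPKM by 1.08 and 0.94, and 7 of the 8 in TPM, with medians of 0.52 and 1.47. Of 76 mitochondrial ribosomal protein genes, 0 were higher and 8 lower on FPKM and 30 were higher in TPM, with medians of -0.51 and 0.43. Mrpl12, for a large subunit protein of the mitochondrial ribosome, was at 33, 122, 41, 99 and 48 against 156, 130 and 230 and fell by 1.46 on FPKM. Mrpl16 fell by 1.32 and Mrpl9 by 1.17 on FPKM. In TPM Mrpl12, Mrpl16 and Mrpl9 were at -0.49, -0.42 and -0.22, and none passed. In values centred on the members all 3 were lower, at -1.22, -1.08 and -0.93 (limma adjusted p = 0.0151, 0.0204 and 0.0139), among 6 of the 76 mitochondrial genes that were, beside 9.47% of all genes tested.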

How the data were processed

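RNA of 5 SCJ cancers and 3 control SCJ tissues was sequenced from polyA+ directional libraries. Per the submitters' processing notes, cutadapt 1.8, TopHat2 2.0.13 and Cuffnorm 2.2.1 were used with mm10; the normalization option of Cuffnorm is not given in the sources used here. The deposited values are FPKM that the authors rounded to whole numbers (100% whole), treated as a score and not as counts. Depth per library is unknown.

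The 14357 of 23361 genes that reached an FPKM of 1 in 3 or more samples were fitted with limma 3.58.1 in R 4.3.3 (eBayes with trend) on log2(FPKM + 1), whose fold changes understate changes of low genes, on log2(TPM + 1) with each column rescaled to 1000000, and on log2(FPKM + 1) centred on the members' median. The fit was tested on simulated data. Samples were grouped by label. The members, lists, named genes and alternatives were chosen with earlier results of these data known. Named were members with a known role, the 5 largest rises and falls in centred values, the 5 highest and 5 lowest levels, members with a cancer apart from the others, ribosomal proteins outside the rule, paralogs, MYC genes and up to 3 genes past the threshold of each other list. No member could be called in opposite directions by FPKM and TPM, since 0 were called on FPKM. Single values of some genes of these lists are not reported here. Of the listed symbols not matched in the table no value is given. Motifs were searched in RefSeq promoters and coding sequences aligned from GENCODE vM21 (GRCm38). Alternatives covered pseudocount, filter, trend, array weights, scaling, centre, the replicate number as a block, rows of shared loci and each library left out.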

Additional observations from a re-analysis of the deposited data

Results flagged for a closer look

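Of the 76 genes, 2 had a cancer far from the other 4, with the gap to the nearest sample taking more of the range of the 5 cancers than Dixon's 95% critical value allows. Chance alone flags about 1 in 20 such groups. In Rps27, cancer 3 was listed at 66 and the others at 2 to 7, a gap of 0.922 of the range. In Rpl30, cancer 4 was listed at 39 and the others at 22 to 25, a gap of 0.824 of the range. Both genes share their locus with a far more abundant row.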

How the results depend on the processing

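Scaling decided most counts. On FPKM, the count higher in cancer was 0, against 61 in TPM, 7 with quantile normalization (14.5% of all genes tested) and 1 (Rpl30) with the sum without the 10 most abundant rows (21.3%), and the count lower was 0, against 4 with array weights (29.5%). The summed level went from a ratio of 0.854 to 1.63 as percent of the column sum, and leaving out each library in turn gave 0.773 to 0.915. In TPM the 61 genes became 34 to 60 with a library left out, lowest without a control. In centred values the 0 and 0 became 4 higher and 2 lower with array weights, and 1 lower with a mean FPKM of at least 5. Same-numbered samples did not deviate together (correlations -0.0211, -0.194 and -0.104), but this cannot exclude that the numbers pair the samples. With the replicate number as a block the TPM count was 4, where 31.3% of all genes tested were higher. The 4 were Rpl14, Rpl21, Rpl27a and Rpl30, of which Rpl21 and Rpl27a are named after their values were seen. In that fit the FPKM and centred counts remained at 0. The order of the members kept r of 0.980 to 0.994.

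Of 694 refits of 44 named fold changes, 608 kept direction and side of the threshold, 66 lost and 10 gained the threshold, and 10 changed sign. Values that changed sign were those on FPKM of Rplp1 (0.14 in TPM), Rps14 (0.24 in TPM), Eef1a1 (0.72 in TPM, 0.15 without the 10 most abundant rows, 0.42 with quantile normalization) and Myc (0.59 in TPM, 0.037 without the 10 most abundant rows), and the centred value of Rpl26 (-0.58 with array weights, -0.0015 with rows of a shared locus summed, and -0.69 to 0.99 with a library left out, the former without control 3). The scalings differ by construction in what is held equal; other causes were not tested. Rounding to whole FPKM limits genes listed under about 10, Rpl26 and Rps27 among the members.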
